A study of Mus musculus with 7 samples.

Results

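Cirbp and Rbm3 encode the paired cold-inducible RNA-binding proteins of mouse cells, and their mRNA levels were followed here in fibroblasts under 6 kinds of metabolic and environmental stress. Both genes were taken by their symbols from the table of gene levels, with no threshold on a measured value, and they are 2 of 49382 genes listed. Levels are in TPM, the share of a library's transcripts that is assigned to a gene, corrected for transcript length and scaled to the same total in every library. A gene was kept for the background when it averaged 2 TPM or more over all libraries, which 12909 genes reached, Cirbp and Rbm3 among them.

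RNA was sequenced from wild-type mouse embryonic fibroblasts (MEFs), primary cells grown from trypsin-digested midgestation embryos after the head and red tissue had been removed, and used at early passage. The study's methods describe sorting of MEFs to exclude macrophages by surface proteins, among them the products of Ptprc and Adgre1. There were 7 libraries, 1 for each group, so no value has a replicate, no test across libraries was possible, and no p-value is given. The control culture received no stress, and the labels give no time for it. Oxidative stress was 10 μM NaAsO2 (sodium arsenite) for 3 h, and osmotic stress was 100 mM NaCl added for 3 h. ER stress was 1 μM thapsigargin, which blocks calcium uptake into the endoplasmic reticulum, for 10 h. Removal of glucose from the medium, removal of glutamine, and culture in 0.1% oxygen (hypoxia) each lasted 10 h. The labels name no cooling in any group. The study's methods give incubator culture for all cells and a hypoxia chamber for 0.1% oxygen, and state no temperature for the chamber.

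CIRBP and RBM3 are small proteins with 1 RNA-recognition motif followed by a glycine-rich tail, and both are made in larger amounts when mammalian cells are mildly cooled. They bind RNA, influence splicing, polyadenylation, stability and translation of their targets, and have been described as protective in cooled cells. Their response is not limited to temperature: low oxygen, ultraviolet light and osmotic stress have been reported to alter 1 or both of them in other cell types, and CIRBP released from cells can act as an inflammatory signal. In fibroblasts, the daily temperature rhythm drives Cirbp, and CIRBP in turn acts on transcripts of the circadian clock.

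The genes are related in sequence but lie on separate chromosomes. Cirbp (ENSMUSG00000045193) spans chr10:80165985-80172786 on the plus strand of GRCm38, and Rbm3 (ENSMUSG00000031167) spans chrX:8138975-8145880 on the minus strand. GENCODE M21 lists 7 transcripts of Cirbp, of which 2 are protein-coding, 1 is a target of nonsense-mediated decay and 4 retain an intron. For Rbm3 it lists 11 transcripts, of which 6 are protein-coding, 2 are targets of nonsense-mediated decay and 2 retain an intron. Because TPM was summed over all transcripts of a gene, coding and non-coding forms cannot be told apart in these values. The coding sequence has 172 codons in the transcript Cirbp-202 and 154 in Rbm3-201, and 339 of 445 aligned bases (76.2%) were identical. To show how close the genes are where they bind RNA, the stretch that codes for the RNP1 motif, the conserved RNA-contacting strand of the recognition motif, is given 5′ to 3′ from the GENCODE M21 transcripts. It covers coding bases 139 to 162 of both genes, and capitals mark the 6 of 24 bases that differ.
Cirbp: cgAggCtttggGttTGtcaccttT
Rbm3: cgGggTtttggCttCAtcaccttC

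The assignment of reads to each gene bears on its level, since reads were matched to transcripts by stretches of 31 bases. Cirbp shared 0 of its 2655 stretches with any other gene, Rbm3 included. Rbm3 shared some of its 4891 stretches with 883 genes, but at least 100 with only 5. The nearest was the processed pseudogene Rbm3-ps, with 372 stretches (7.61%). Its TPM was 0 in the control, osmotic stress and glucose depletion, 8.98 in oxidative stress, 6.86 in ER stress, 3.27 in glutamine depletion and 10.2 in hypoxia. At its highest, in hypoxia, it made up 3.27% of the sum of both, so it was small beside Rbm3 in every library. Another of the 5, the protein-coding gene Phospho2, shared 164 stretches (3.35%). Its level ran from 5.77 TPM in osmotic stress to 22.9 TPM in ER stress, and its effect on the level of Rbm3 was not tested. The antisense gene Rbm3os overlaps Rbm3 by 452 bp and ran from 0.709 to 2.81 TPM, and since the counting is not stated to use strand, reads of the overlap cannot be told apart.

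Regulation of Cirbp in the cold has been linked to a mild cold-responsive element, TCCCCGCC, bound by the transcription factor SP1. RefSeq gives 2 start-site windows of 300 bases for Cirbp on GRCm38.p6, each from 250 bases before a start to 50 after it. The window chr10:80167589-80167888 on the plus strand is printed because it holds the element, shown in capitals, whose first base lies at window position 4 (position -247 from the start).
Cirbp promoter: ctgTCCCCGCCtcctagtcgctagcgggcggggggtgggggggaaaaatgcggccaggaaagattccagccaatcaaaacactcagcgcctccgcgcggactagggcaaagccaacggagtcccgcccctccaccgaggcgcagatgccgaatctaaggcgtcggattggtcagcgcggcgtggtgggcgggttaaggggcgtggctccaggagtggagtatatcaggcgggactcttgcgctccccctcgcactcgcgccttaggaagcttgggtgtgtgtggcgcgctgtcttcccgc
Both strands were searched for each motif. The letters TCCCCGCC were found in 5.38% of 32851 such windows of all genes, once in this window and in 0 places in the second Cirbp window. The GC box GGGCGG was found 3 and 4 times in the Cirbp windows, and in 35.7% of all windows. The core of the hypoxia-response element occurs in 2 forms. GCGTG was found 2 times in each Cirbp window and in 32.4% of all windows, and ACGTG had 0 matches in both Cirbp windows and was found in 19.6% of all windows. The E-box CACGTG, which contains the second form, also had 0 matches and was in 7.15% of all windows, and the heat shock element unit GAANNTTC had 0 matches and was in 7.86%. These matches describe letters in the windows, not binding.

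Rbm3 was the far more abundant transcript in every library, and the genes did not follow the same order across the conditions. On the log2(TPM + 1) scale, Cirbp fell just past 2-fold in hypoxia, where 6.21% of all genes kept for the background passed it, and in no other condition. This call was lost under 2 of the other settings tried, at log2 changes of -0.88 and -0.99. Rbm3 stayed within 2-fold in all 6, with its lowest levels in ER stress and hypoxia. These are bulk cultures, in which fewer cells that express a gene and less of its RNA per cell cannot be told apart.

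Cirbp stood at 29.1 TPM in the control, 26.9 in oxidative stress, 23.3 in osmotic stress, 33.3 in ER stress, 22.8 without glucose, 36.6 without glutamine and 13.5 in hypoxia. Hypoxia thus had the lowest library by a clear step: the next higher, glucose depletion, was 1.68 times its level, whereas every other neighbouring pair in the order differed by 1.02 to 1.15 times. With 1 library a group there is no spread against which to set such small steps. In the control, 60.6% of kept genes had a lower TPM than Cirbp, against 39.0% in hypoxia and 67.8% in glutamine depletion.

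Rbm3 stood at 507 TPM in the control, 424 in oxidative stress, 478 in osmotic stress, 294 in ER stress, 557 without glucose, 479 without glutamine and 301 in hypoxia. Its libraries formed a low pair, ER stress and hypoxia, which differed from each other by 1.03 times, and 5 higher libraries that began 1.41 times above hypoxia. Within the upper 5, neighbours differed by at most 1.13 times, and glutamine depletion and osmotic stress by 1.002 times. Rbm3 ranked between 292 (glucose depletion) and 539 (ER stress) among the kept genes, so it remained one of the abundant mRNAs of these cells throughout.

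**Figure D1:**
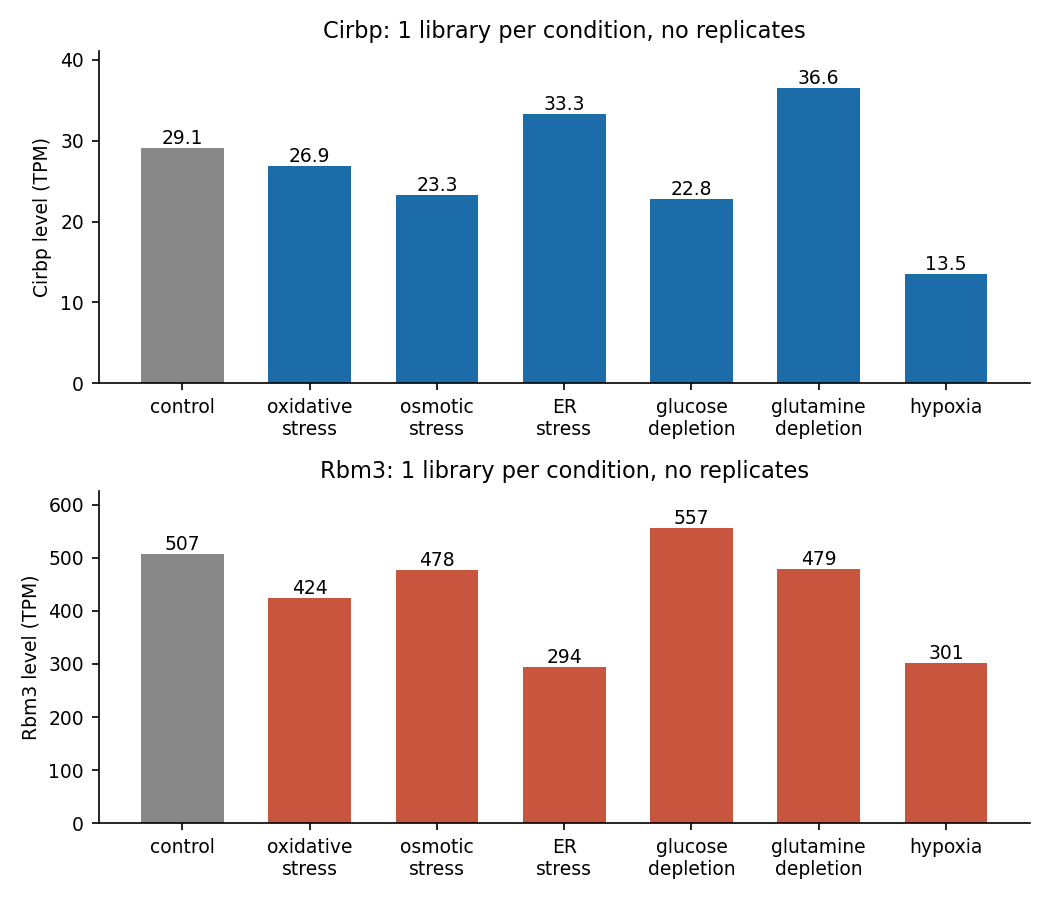
Bars show the level in TPM (vertical axis, from 0) of Cirbp (upper panel) and Rbm3 (lower panel) in the control (grey) and the 6 stress conditions, 1 library each and therefore without error bars. Cirbp was lowest in hypoxia at 13.5 TPM and highest in glutamine depletion at 36.6, and Rbm3 was lowest in ER stress at 294 and highest in glucose depletion at 557.

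Changes are given as the difference of log2(TPM + 1) between a condition and the control, a scale that understates the change of low genes, and a gene is called when the difference exceeds 2-fold, that is 1 log2 unit. All 6 changes share the 1 control library, so an unusual control value would move all of them together, and conditions of 3 h and 10 h differ in duration as well as in stress. The share of kept genes called in either direction, the background for the counts here, was 8.78% in oxidative stress, 11.8% in osmotic stress, 19.6% in ER stress, 4.24% after removal of glucose, 6.41% after removal of glutamine and 6.21% in hypoxia. Of all kept genes, 2.64% were lower by more than 2-fold in hypoxia.

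The log2 change of Cirbp in hypoxia was -1.05, to 46.5% of the control level, which is only just past the threshold. A lower change in hypoxia was seen in 310 kept genes (2.40%). Subtracting the median of all kept genes in hypoxia (-0.05) left Cirbp at the 2-fold line itself. Adding 5 TPM in place of 1 gave -0.88, and the median of the other libraries as the reference gave -0.99, so both of these settings put it within 2-fold. Cirbp was lower than control in glucose depletion (-0.34, 78.3% of control), osmotic stress (-0.31, 80.1%) and oxidative stress (-0.11, 92.5%), none of which reached 2-fold. In oxidative stress the median of all kept genes was -0.16, so relative to it Cirbp was 0.05 higher. In osmotic stress, 35.2% of kept genes had a lower change than Cirbp, against 14.2% in glucose depletion, where the spread of all genes was narrow. Cirbp was higher than control in glutamine depletion (0.32, 126% of control) and ER stress (0.19, 115%), again within 2-fold. In glutamine depletion, where 60.0% of kept genes lay below the control, 84.9% had a lower change than Cirbp.

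Rbm3 had its lowest log2 changes in ER stress, at -0.78 (58.0% of control), and in hypoxia, at -0.75 (59.4%). The same size of change stood in different places among all genes. In hypoxia only 616 kept genes (4.77%) had a lower change than Rbm3, and the 5th percentile of all changes was -0.73. In ER stress, which spread the kept genes from -1.48 to 1.30 between the 5th and 95th percentiles, 15.6% had a lower change. The remaining changes of Rbm3 were -0.26 in oxidative stress (83.6% of control), -0.09 in osmotic stress, -0.08 in glutamine depletion and 0.14 in glucose depletion. These lay near the middle of all genes in the 3 conditions with values below 0, with 39.1%, 53.2% and 50.8% of kept genes lower, and higher in glucose depletion, with 77.0% lower. Relative to the median of all kept genes Rbm3 was at 0.03 in osmotic stress and 0.01 in glutamine depletion, so its sign there depended on the scaling.

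**Figure D2:**
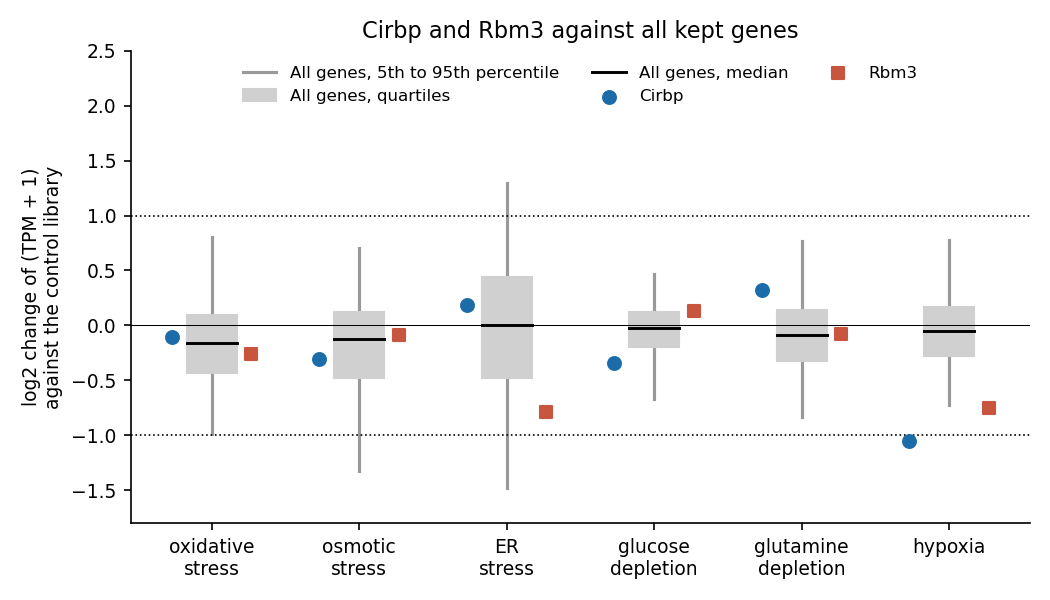
The vertical axis is the log2 change of TPM + 1 against the control library in each of 6 conditions, with Cirbp as blue circles and Rbm3 as red squares. Grey boxes and lines give the quartiles and the 5th to 95th percentiles of all 12909 kept genes, black bars their median, and dotted lines mark 2-fold. Cirbp in hypoxia (-1.05) lies beyond the dotted line, and Rbm3 in hypoxia (-0.75) lies just below the 5th percentile.

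The spread over libraries placed the genes on either side of the typical gene. From lowest to highest library, Cirbp varied 2.70-fold (1.37 log2 units, more than 68.1% of kept genes), and Rbm3 varied 1.89-fold (0.92 log2 units, more than 42.6%). The median range of all kept genes was 1.04 log2 units, with quartiles of 0.68 and 1.56. Neither gene was therefore an unusually variable or an unusually steady transcript in these libraries.

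The paired genes differed most in ER stress. The ratio of Rbm3 to Cirbp in TPM was 17.4 in the control, 15.8 in oxidative stress, 20.5 in osmotic stress, 8.84 in ER stress, 24.5 without glucose, 13.1 without glutamine and 22.3 in hypoxia. ER stress thus gave the lowest ratio, with Cirbp above and Rbm3 below the control, and glucose depletion the highest, with the signs the other way round. On the log2 scale the change of Rbm3 minus that of Cirbp was -0.97 in ER stress, -0.40 in glutamine depletion, -0.15 in oxidative stress, 0.22 in osmotic stress, 0.30 in hypoxia and 0.47 in glucose depletion. Both changes had the same sign in 3 of 6 conditions, oxidative stress, osmotic stress and hypoxia, and after subtracting the median of all kept genes in 2 of 6, glutamine depletion and hypoxia. Hypoxia was the condition in which both stood far down among all genes. Over the 7 libraries, Pearson's r of the log2 levels of the pair was 0.28, given as a description only.

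Conditions of equal duration were also set against each other without the control. At 10 h, Cirbp was lower in hypoxia than in glutamine depletion by more than 2-fold (log2 difference -1.37), and 335 kept genes had a lower difference. It was also lower in hypoxia than in ER stress by more than 2-fold (-1.24), and 7.19% of kept genes had a lower difference. The shares of all kept genes that were lower by more than 2-fold in these contrasts were 4.76% and 10.9%. Against glucose depletion the difference of Cirbp in hypoxia was -0.71, within 2-fold, and 5.59% of kept genes had a lower difference.

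Rbm3 at 10 h showed almost no difference between hypoxia and ER stress (0.04). Both were lower than glucose depletion, hypoxia by a log2 difference of -0.88 (438 kept genes lower, 3.39%) and ER stress by -0.92 (11.2% lower). Against glutamine depletion the differences were -0.67 for hypoxia and -0.70 for ER stress, and none of the differences of Rbm3 reached 2-fold. The nutrient conditions parted the genes in opposite directions: glucose minus glutamine depletion was -0.66 for Cirbp and 0.22 for Rbm3. At 3 h, oxidative minus osmotic stress was 0.20 for Cirbp and -0.17 for Rbm3, both small.

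Of all kept genes, 34.4% were past 2-fold in at least 1 of the 6 conditions, which is the background for counts over all conditions. Of 9 regulators, other cold-induced genes and reported targets, all were kept and 1 was past 2-fold in at least 1 condition. This was Srsf5, a splicing factor of the SR family that is itself cold-induced, which fell past 2-fold in hypoxia. Its level was 176 TPM in the control, 208 in oxidative stress, 267 in osmotic stress, 230 in ER stress, 149 without glucose, 268 without glutamine and 84.8 in hypoxia. The log2 change in hypoxia was -1.05 (48.1% of control), beside 0.60 without glutamine, 0.38 in ER stress and -0.24 without glucose. Srsf5 thus lay on the same side of the control as Cirbp in these 4 conditions, and on the other side in oxidative (0.24) and osmotic stress (0.60).

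Sp1, the factor linked to the cold-responsive element, had a log2 change of -0.94 in osmotic stress (28.5 to 14.4 TPM), 0.56 in glutamine depletion and 0.25 in hypoxia. Clk1 and Clk4 are kinases of SR proteins whose activity depends on body temperature. Clk4 was at 29.8 TPM in the control and had changes of 0.93 in osmotic and 0.74 in ER stress, and Clk1 (44.7 TPM) ran from -0.08 to 0.35. Hnrnph1, which acts on splicing of an Rbm3 exon that brings about decay of the mRNA, had 401 TPM in the control and changes of -0.34 in oxidative stress and -0.20 in hypoxia.

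Reported targets of the proteins stayed within 2-fold in all conditions. Rtn3, whose translation has been linked to RBM3, had 105 TPM in the control, and its changes ran from -0.24 to 0.07. Of mRNAs bound by CIRBP, Txn1, a thioredoxin (300.3 TPM), ran from -0.21 to 0.11, and Clock (16.7 TPM) from -0.22 to 0.26. Rpa2, a subunit of the single-stranded DNA-binding complex (23.6 TPM), had changes of -0.71 in glutamine depletion and -0.61 in hypoxia. The median of the 9 genes ran from -0.10 in glutamine depletion to 0.07 in ER stress, beside -0.09 and 0 for all kept genes.

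**Figure D3:**
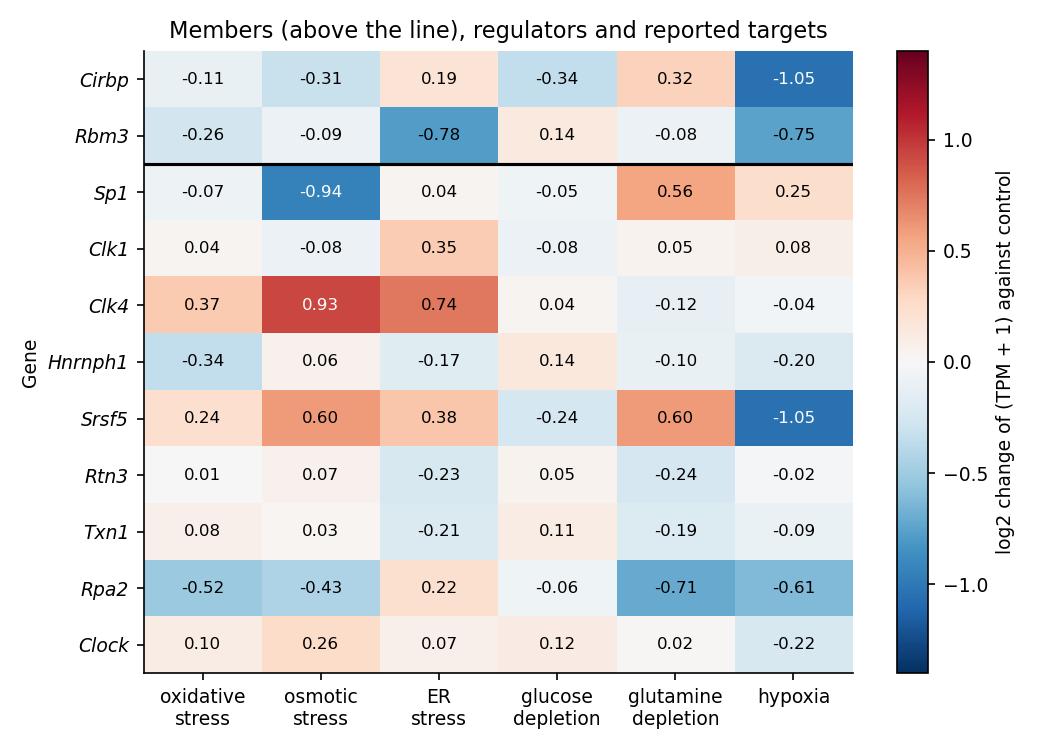
Colours and printed values are log2 changes of TPM + 1 against the control for Cirbp and Rbm3 (above the line) and the 9 regulators and reported targets (below it), in the 6 conditions. Cirbp and Srsf5 are both at -1.05 in hypoxia, and no other value of the panel passes 1 log2 unit in either direction.

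The list of relatives held 20 genes for proteins with RNA-recognition motifs, 10 of them heterogeneous nuclear ribonucleoproteins, and all were kept. Of the 20, 2 were past 2-fold in at least 1 condition, beside 34.4% of all kept genes. Rbmx, an X-linked relative, fell in oxidative stress (29.6 to 14.2 TPM, -1.01) and in ER stress (13.9 TPM, -1.04). Taf15, an RNA-binding subunit associated with the general transcription factor TFIID, rose in ER stress from 69.2 to 183 TPM (1.39). In hypoxia 0 of the 20 passed 2-fold and the median was -0.19, beside -0.05 for all kept genes, and 12 of the 20 were below the control, as were 55.5% of all kept genes. The members of that list furthest from the control in hypoxia were Hnrnpd (-0.83), Hnrnpdl (-0.73), Hnrnpab (-0.62) and Hnrnpa3 (0.56), so none was as far down as Cirbp. In glucose depletion 4 of the 20 were below the control, against 53.7% of all kept genes, and the median was 0.04 beside -0.02.

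The heat shock genes, whose products are made when temperature rises, were called mainly at 3 h. Of 13, all kept, 7 rose and 0 fell in oxidative stress, and 3 rose and 0 fell in osmotic stress. In ER stress 0 rose and 3 fell, and 0 were called in hypoxia or in either nutrient depletion. The shares of all kept genes called were 8.78% in oxidative stress, 11.8% in osmotic stress and 19.6% in ER stress. Over all conditions, 8 of the 13 were past 2-fold in at least 1, beside 34.4% of all kept genes. Hspa1a and Hspa1b, near-identical genes for inducible HSP70 whose reads can be split between them, rose by 5.01 and 4.12 in oxidative stress and by 2.62 and 3.47 in osmotic stress. In ER stress Hspa1a had a change of -1.45, and Hspa1b lay just past the 2-fold line on the same side. The others that rose in oxidative stress, chaperones and their partners, were Hsph1 (1.63), Dnajb1 (1.62), Hspb1 (1.59), Bag3 (1.10) and Hspa8 (1.04). Hspa4l also rose in osmotic stress (2.01), and Hspb1 also fell in ER stress (-1.36). Hsf1, the transcription factor that drives these genes, had -0.05 in oxidative stress. There the median of the list was 1.04, beside -0.16 for all kept genes, while Cirbp was at -0.11 and Rbm3 at -0.26.

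Of 12 circadian clock genes all but Hlf were kept, and 7 of these 11 were past 2-fold in at least 1 condition, beside 34.4% of all kept genes. Their median ran from -0.20 in glucose depletion to 0.19 in glutamine depletion. In hypoxia, where 6.21% of all kept genes were called, 1 rose and 0 fell: Cry1, a repressor of the clock, changed by 1.24. Arntl, which encodes the partner of CLOCK, changed by 1.05 in glutamine depletion, where Cirbp was highest, and by 0.72 in hypoxia, where Cirbp was lowest. ER stress had the most calls, as it had over all kept genes (19.6%). There Cry1 (1.72) and Arntl (1.16) rose, and the output genes Dbp (-2.41) and Tef (-1.50) and the repressor gene Nr1d1 (-1.60) fell. Per2, low in the control, rose in oxidative stress (1.41 to 10.8 TPM, 2.29). In osmotic stress Nr1d1 rose (16.1 to 38.2 TPM, 1.20) and Cry2 fell (10.1 to 3.68 TPM, -1.25). Of the receptors for extracellular CIRBP, Tlr4 (8.83 TPM in the control) and its partner Ly96 (19.2 TPM) were past 2-fold in no condition, and Trem1 was listed at 0 in all libraries.

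Likeness of pattern was measured as Pearson's r of log2(TPM + 1) over the 7 libraries, among the 3763 genes that averaged 10 TPM or more and had a range of at least 1 log2 unit. The points are few, and the 50th gene in order still had an r of 0.820 for Cirbp and 0.825 for Rbm3, so the names are a description only. The genes most like Cirbp were the processed pseudogenes Gm10297 (0.985) and Gm13015 (0.979), then Tpd52l1 (0.939), the phosphate transporter gene Slc20a2 (0.937) and the nucleic acid demethylase gene Alkbh1 (0.932). In hypoxia Tpd52l1 was at 5.51 TPM against 13.6 in the control, Slc20a2 at 19.0 against 36.5 and Alkbh1 at 12.0 against 24.7. Gm13015 was listed at 0 in hypoxia. Among protein-coding genes alone (3383), Slc35e4 (0.929) and Ctu2 (0.918), a gene for tRNA thiolation, completed the 5 most like Cirbp.

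The genes most like Rbm3 were Gm24135 and Gm24710 (both 0.975), microRNA genes with identical values that were listed at 0 in ER stress and hypoxia. The poly(A)-selected libraries were not made to measure microRNA, and the identical values may be the same signal listed under both names. Next came Cotl1, which encodes an actin-binding protein (0.957), and Angptl7, which encodes a secreted angiopoietin-like protein (0.945). Cotl1 had 76.2 TPM in the control, 30.9 in ER stress and 38.7 in hypoxia, and Angptl7 had 18.1, 4.13 and 8.37. These genes had the same low pair of libraries as Rbm3, which follows from their choice by r over the same libraries and is no separate result. Protein-coding genes alone added the cell-cycle transcription factor gene Mybl2 (0.932) and the glycosyltransferase gene Galnt2 (0.924). Of the 50 genes most like Cirbp and the 50 most like Rbm3, 0 were shared. With an r of 0.28 between Cirbp and Rbm3, no gene could reach the r of the 50th gene for both. The count therefore adds nothing to that r.

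**Figure D4:**
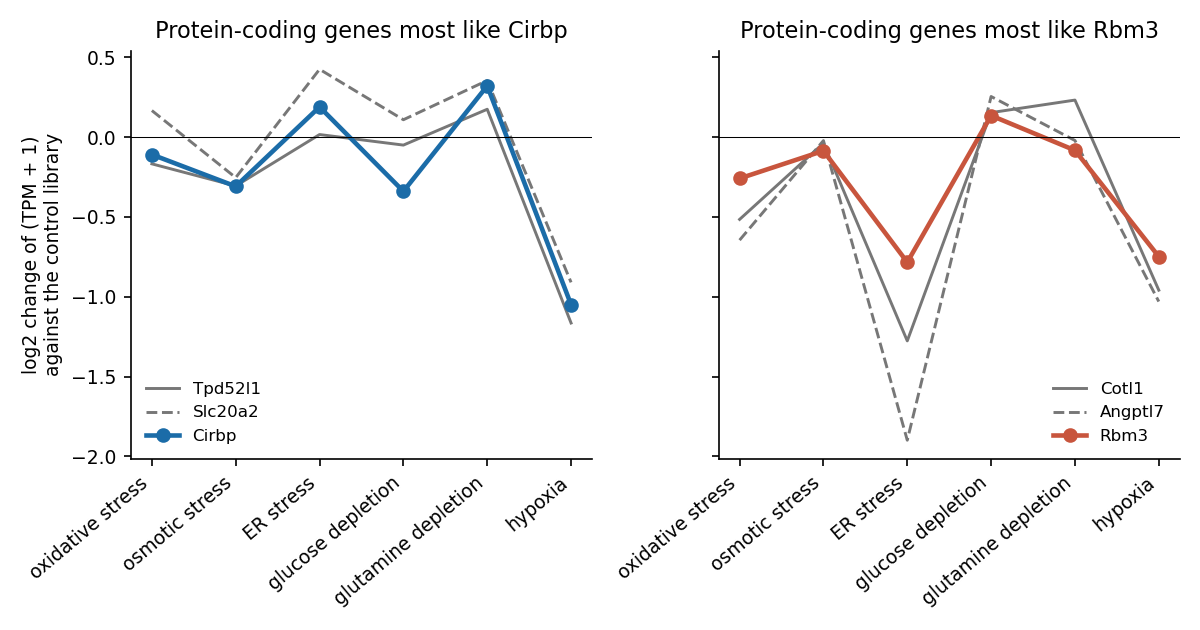
Lines join the log2 changes of TPM + 1 against the control over the 6 conditions for Cirbp (left, blue) and Rbm3 (right, red) and for the 2 protein-coding genes with the highest r to each (grey), and conditions have no order. The left group is lowest in hypoxia, and the right group is low in both ER stress and hypoxia, with Angptl7 at -1.90 in ER stress.

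The libraries were fibroblast-like by their markers. All 10 fibroblast markers were kept, with Vim the highest. Their summed level ran from 8766 TPM in ER stress to 16304 in hypoxia (control 14168). Rbm3 was at 294 TPM in ER stress and 301 TPM in hypoxia, and the part of this sum in its level was not tested. The sums for 6 macrophage and leukocyte markers ran from 6.76 to 13.7 TPM. Cd68 was the highest of them (5.26 to 9.77 TPM), and Adgre1, Ptprc and Tyrobp were below 1 TPM everywhere. The sort described in the methods selects against the products of Adgre1 and Ptprc, so their low values are no separate result. For 4 endothelial markers the sums ran from 2.94 to 7.31 TPM, with Kdr the highest (1.92 to 4.23 TPM) and Cdh5 below 1. Epithelial and erythroid sums stayed at or below 0.906 TPM with all markers below 1 and Hbb-bs and Hbb-bt at 0. The sum of 3 muscle markers was 13.7 to 36.2 TPM, almost all Des, with Myod1 and Myog below 1. The sum of 3 neural markers was 26.2 to 128 TPM, almost all Tubb3 and highest in ER stress, with Elavl3 below 1, and the part of either sum in the level of Rbm3 there was not tested. Mitochondrially encoded genes took 5.09% (ER stress) to 9.25% (oxidative stress) of a library's TPM and 6.50% in hypoxia against 6.37% in the control, and 19819 to 21154 genes were above 0 TPM. TPM keeps no record of read number, so the depth behind each value is unknown and no counting interval can be given.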

How the data were processed

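Total RNA from each culture was made into libraries with a stranded, poly(A)-selecting kit and sequenced as read pairs. The authors quantified reads with kallisto 0.43.1 against cDNA of GRCm38, per the submitters' processing notes and the study's methods, and deposited TPM summed by gene. TPM is relative to the library total, so a large change in abundant genes shifts all others, and depth is not recoverable.

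From the deposited TPM, log2(TPM + 1) differences were computed for genes that averaged 2 TPM or more. With 1 library per group nothing was tested, and a call means more than 2-fold, the rule the study used for these conditions. Where no replicate exists, a value was counted as moved by another setting if it crossed 2-fold or shifted by over 1.5-fold. Named genes were Cirbp and Rbm3, the 5 genes of highest Pearson r to each, genes among the 50 most like both, members of the context lists past 2-fold, and all regulators and reported targets, except that 1 gene is not reported here; the relatives named for hypoxia, Hsf1, Tlr4 and Ly96 were added once their values had been seen. The members and lists were chosen with earlier results of these data known. The conditions were separate cultures, and whether these came from the same or different embryos is not given in the sources used here.

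Alternatives were pseudocounts of 0.1 and 5 TPM, centring on the median gene, removal of mitochondrially encoded genes, removal of the 100 most abundant genes from the total, the median of the other libraries as reference, other filters (none, or a mean of 10 TPM) and calls at 1.5-fold and 3-fold. Rescaling to protein-coding genes, adding Rbm3-ps to Rbm3 (it is listed in the table under an older name and was matched by gene ID) and likeness among protein-coding genes were chosen after seeing the data. Gene models, transcripts and biotypes were from GENCODE M21 and promoter windows from RefSeq, in which Cirbp matched and Rbm3 had no entry. The 2-fold rule was tested on simulated data with planted changes well past that line. The likeness, sequence and motif steps were not tested in this way. Python 3.11.15, numpy 2.4.6, pandas 2.3.3, Biopython 1.88 and matplotlib 3.10.9 were used.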

Additional observations from a re-analysis of the deposited data

How the results depend on the processing

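No paired analysis was possible because each group had 1 library and no test was made. Of 90 values of the changes of Cirbp and Rbm3 under alternative settings, 88 stayed on their side of 2-fold and shifted by less than 1.5-fold. The exceptions were both for Cirbp in hypoxia, which was -0.88 with a pseudocount of 5 TPM and -0.99 against the median of the other libraries, no longer past 2-fold; over all settings it ran from -1.10 to -0.88. A larger pseudocount shrinks such changes by construction. Rbm3 ran from -0.83 to -0.70 in ER stress and from -0.75 to -0.66 in hypoxia, so neither reached 2-fold under any setting run. The direction turned only for small changes: Cirbp in oxidative stress ran from -0.11 to 0.05, and Rbm3 in osmotic stress from -0.10 to 0.09 and in glutamine depletion from -0.09 to 0.09.

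The number of all genes past 2-fold moved with the settings, in the order oxidative stress, osmotic stress, ER stress, glucose depletion, glutamine depletion and hypoxia. It was 580, 667, 1527, 337, 432 and 501 with a pseudocount of 5 TPM, and 482, 592, 1511, 158, 356 and 307 with a mean of at least 10 TPM. Calls at 1.5-fold gave 3031, 3369, 5193, 1252, 2338 and 1979. Without a filter it was 1914, 2451, 1210, 1457 and 1530 in the conditions other than ER stress, and at 3-fold 504, 648, 993, 372 and 463 in those other than glucose depletion. Among the 5 genes most like each member, 3 were shared with the 5 protein-coding ones for both, while Euclidean distance in place of r kept 4 of 5 for Cirbp and 1 of 5 for Rbm3, and put 1 gene among the 50 most like both.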
